A study of Mus musculus with 18 samples.

Results

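Mucin and goblet cell genes were described here as a set of 10: the secreted mucins Muc5ac and Muc5b, the membrane mucins Muc1, Muc4, Muc16 and Muc20, the goblet cell factors Agr2 and Spdef, and the airway secretory genes Bpifa1 and Bpifb1. They were chosen by name out of 21887 protein-coding genes on the assembled chromosomes. A peak was counted for a gene when it overlapped the RefSeq gene span (GRCm38.p6, the assembly behind mm10) or the 10 kb on either side of it. Of 55642 listed peaks in 10 libraries, 26 met that rule.

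The peaks came from ATAC-seq, in which a transposase cuts open chromatin, on 10000 sorted lung epithelial cells per library from adult c57/bl6 mice aged 6 to 12 weeks. All cells were gated as CD31/45-negative, Epcam-positive and Sca-1-positive, and were sorted further by CD24 into the populations CD24neg (no CD24), CD24low and CD24high. The treatment was G9ai, an inhibitor of the histone H3 lysine 9 methyltransferase G9a, or vehicle. The sources used here name neither the compound nor its dose and duration. The design named 3 mice per arm and 18 samples in 6 groups. Peak lists were analysed for G9ai replicates 2 and 3 of each population, for vehicle replicates 2 and 3 of CD24low, and for vehicle replicate 3 of CD24neg and of CD24high. Vehicle peaks of CD24neg and CD24high therefore have no replicate, and the other 8 samples were not analysed here.

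Goblet cells make the gel-forming mucins of airway mucus, chiefly MUC5AC and MUC5B. Membrane mucins coat the apical surface and cilia. The ETS-family factor SPDEF drives goblet cell differentiation, and AGR2 is a protein disulphide isomerase that folds mucins in the endoplasmic reticulum. BPIFA1 and BPIFB1 are secreted host-defence proteins of the airway lining. In mice, Muc5b is made by secretory cells of the healthy airway, whereas Muc5ac is mainly induced in allergic inflammation.

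Each list holds a subset of its library's called peaks, and arms within a population hardly overlap. The lists held 2552 to 12985 peaks, equal to 3.03% to 13.2% of the highest peak number in the same list. A gene without a listed peak may thus be open in both arms or closed in both. Depth cannot be read from the lists. The authors' score was therefore read only as a percentile within its own list, where 100 is the strongest peak. A region was called G9ai-only when every G9ai library of the population had a peak in it and no vehicle library did, and vehicle-only in the reverse case. Since agreement between replicates and absence from the other arm are built into the lists, neither measures the spread between mice. In sorted bulk cells, a different share of goblet cells and a different state of the same cells cannot be told apart.

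The Spdef start site is printed first, because among the 8 genes with a RefSeq promoter window in the table used here, it was the only one with a listed peak over that window. Muc5ac and Muc5b have no entry there and were not checked. The window runs 250 bases before to 50 bases after the start site at 27728951 on chromosome 17, on the minus strand. The RefSeq span of Spdef reaches further, to 27731003. The window is given 5′ to 3′ from RefSeq (GRCm38.p6), with the 122 bases common to both CD24low vehicle peaks in capitals.
Spdef, chr17:27728902-27729201: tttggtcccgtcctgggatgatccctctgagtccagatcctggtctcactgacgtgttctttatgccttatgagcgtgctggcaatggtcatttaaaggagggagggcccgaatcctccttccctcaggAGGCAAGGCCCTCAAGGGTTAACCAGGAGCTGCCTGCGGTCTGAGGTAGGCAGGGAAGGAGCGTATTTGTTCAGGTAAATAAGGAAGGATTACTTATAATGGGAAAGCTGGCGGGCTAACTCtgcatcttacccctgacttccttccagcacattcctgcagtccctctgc

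Spdef was listed in CD24low cells alone, at different places in the 2 arms. Both vehicle libraries listed a peak over its start site, and both G9ai libraries listed 2 peaks inside the gene instead. In vehicle replicate 2 the start-site peak lay at 27728951 to 27729072 with score 73, percentile 58.3 of its list. In vehicle replicate 3 it lay at 27728946 to 27729081 with score 67, percentile 38.2. Both were thus mid-range peaks that covered the same bases upstream of transcription. A vehicle-only region over a promoter window was found in CD24low at 295 of 17492 genes with a promoter sequence (1.69%). In the other 5 combinations of population and arm no promoter window of the 8 genes checked was covered. Of all promoters, G9ai-only regions covered 1.77% in CD24neg, 2.73% in CD24low and 1.35% in CD24high, and vehicle-only regions covered 2.34% in CD24neg and 3.36% in CD24high.

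With G9ai, the strong Spdef peak lay near the far end of the gene. It spanned 27716805 to 27717209 in replicate 2, with score 242 and rank 93 of 7379 peaks (percentile 98.7). In replicate 3 it spanned 27716906 to 27717147, with score 161 and rank 120 of 7361 (percentile 98.4). This was the highest percentile of any peak in the 10 windows, and it was reached in both libraries. The interval began 11742 bp downstream of the start site in replicate 2 and 11804 bp in replicate 3. A weaker peak lay between it and the start site, at 27726561 to 27726786 in replicate 2 (percentile 18.2) and at 27726614 to 27726743 in replicate 3 (percentile 20.9). This second site was below the median of both lists. Peak numbers, which rose along each chromosome in all 10 lists, left 1 called but unlisted peak between these 2 peaks in each G9ai library. No listed peak fell in the Spdef window in CD24neg or CD24high. The CD24neg vehicle library had one 11580 bp below the gene, just outside the window.

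**Figure D1:**
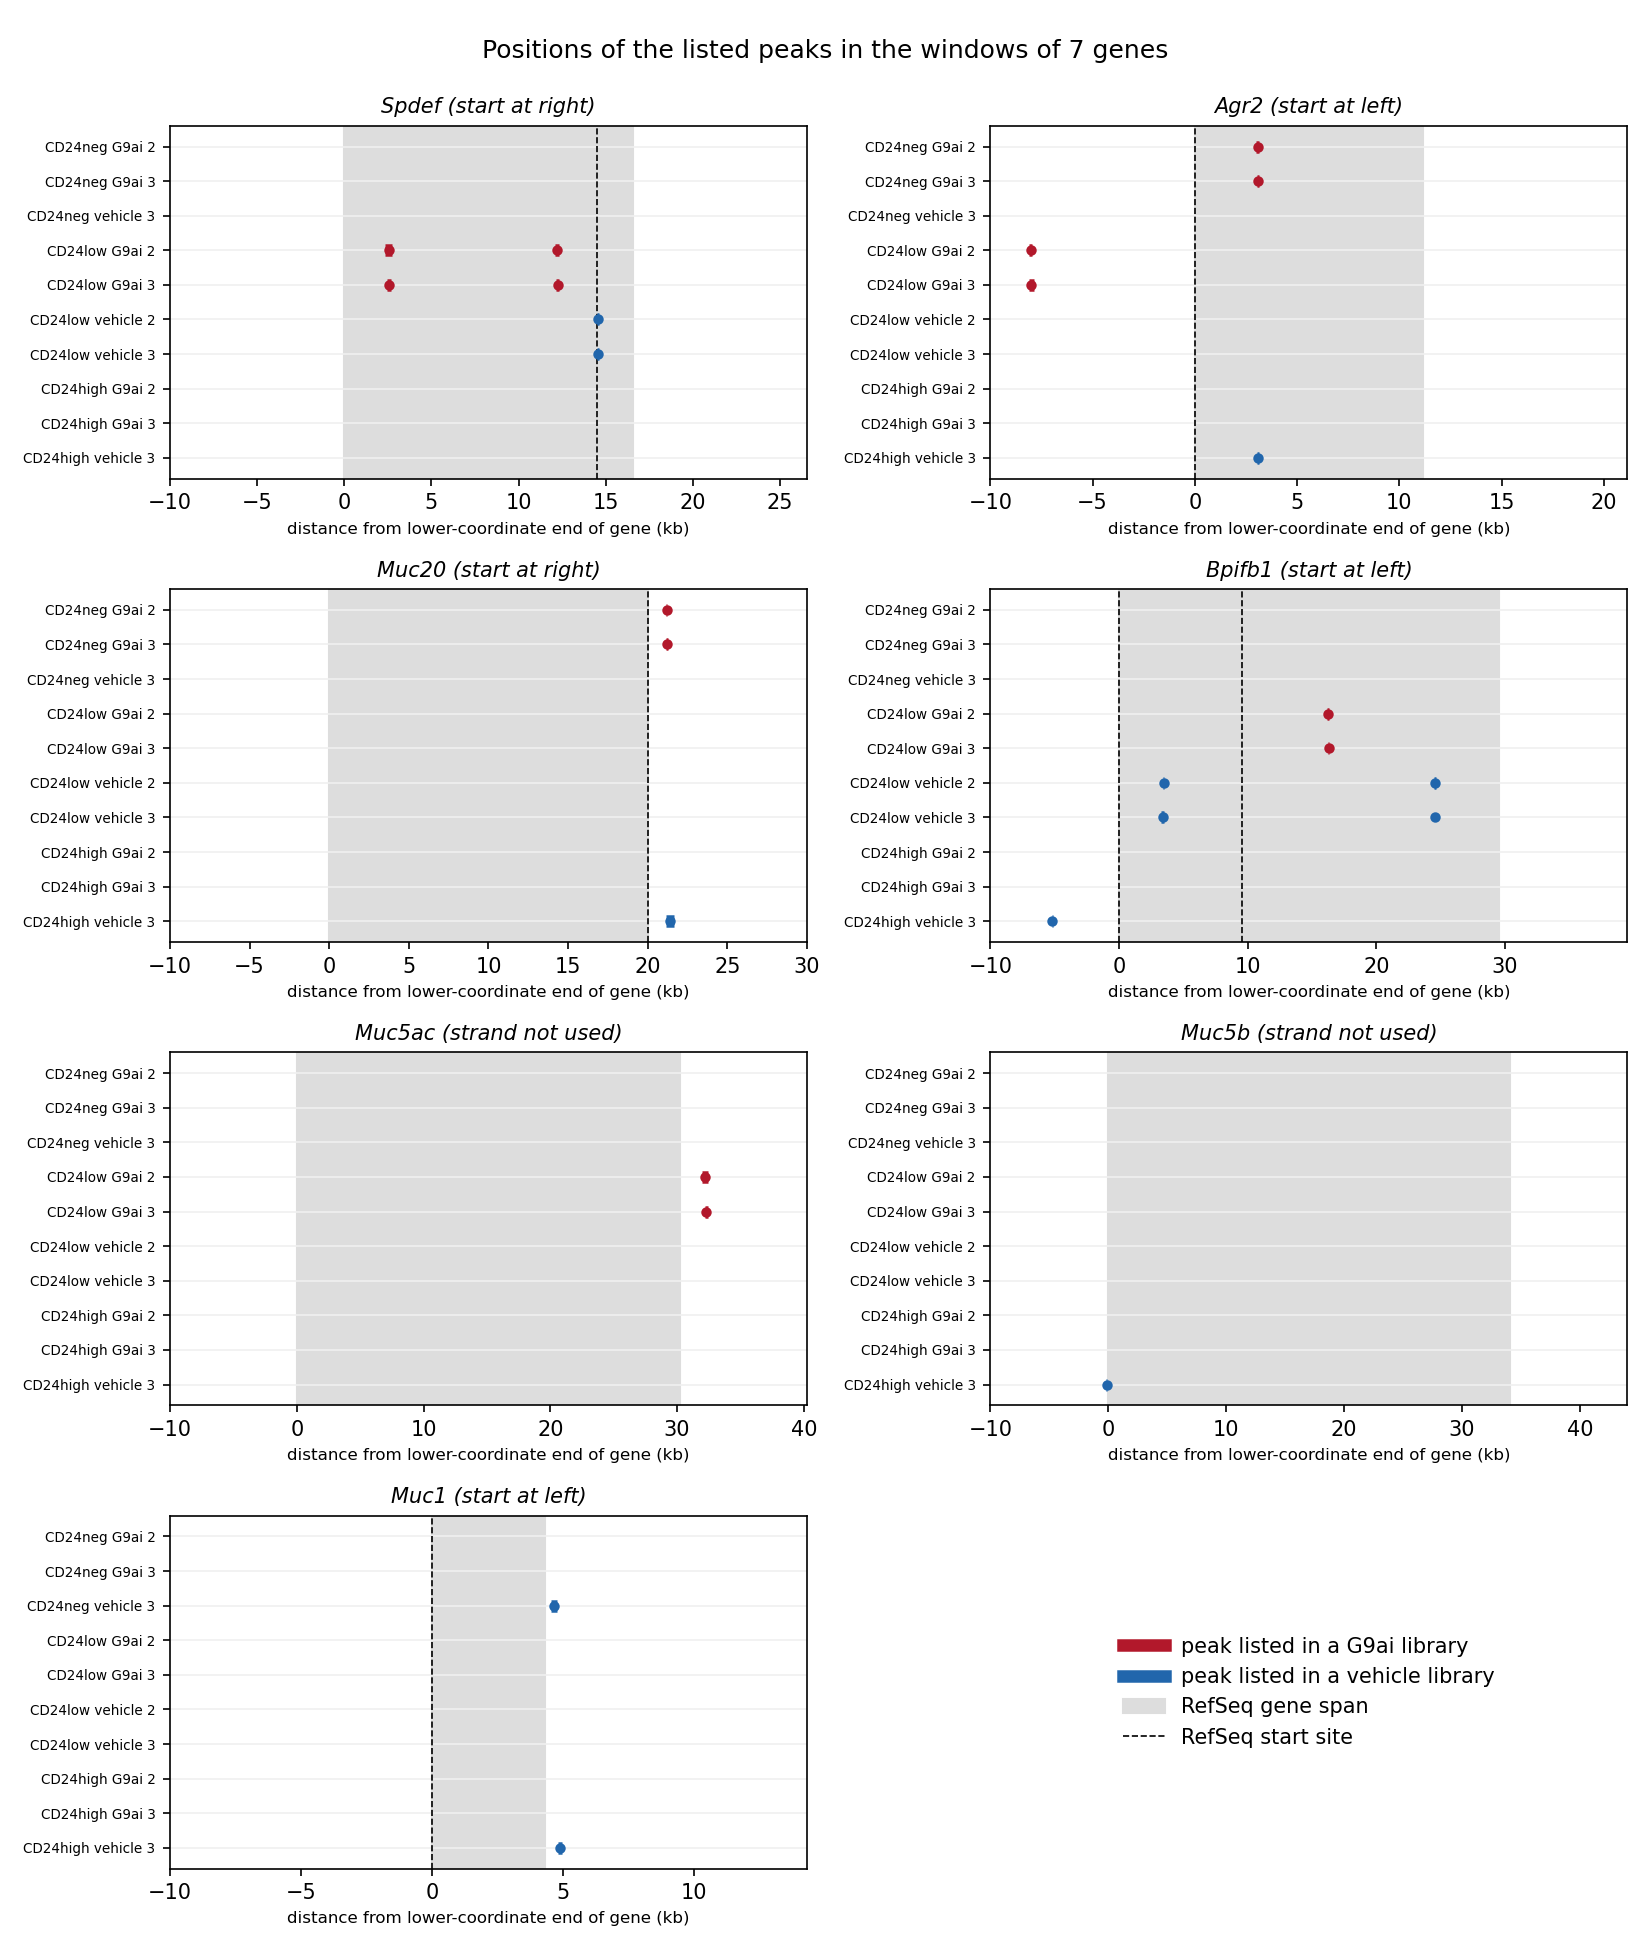
Listed peaks in the windows of the 7 genes that had any, by library (rows) and distance in kb from the lower-coordinate end of the gene (x axis). Red marks G9ai and blue vehicle, dots mark peak midpoints and are wider than the peaks, grey is the gene span, and dashed lines are RefSeq start sites. The Spdef start site was covered in both CD24low vehicle libraries, and the same Agr2 and Muc20 positions were marked in CD24neg G9ai and CD24high vehicle libraries.

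Agr2 and Muc20 each had a site listed with G9ai in CD24neg cells and with vehicle in CD24high cells. The Agr2 site lay inside the gene, 3011 to 3041 bp downstream of its start site at 35992925 on chromosome 12. It spanned 35995936 to 35996047 in CD24neg G9ai replicate 2 (score 80, percentile 57.2) and 35995956 to 35996042 in replicate 3 (score 53, percentile 8.39). In the CD24high vehicle library it spanned 35995966 to 35996069 (score 69, percentile 22.5). The 3 peaks shared 77 bases, and neither the CD24neg vehicle library nor the CD24high G9ai libraries listed a peak in the Agr2 window.

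The Muc20 site began 1114 to 1141 bp upstream of the start site of Muc20, which is read from the minus strand of chromosome 16. Muc20 encodes a membrane mucin. In CD24neg G9ai the peak was narrow and low in its list, at 32798576 to 32798650 in replicate 2 (score 52, percentile 11.5) and 32798549 to 32798670 in replicate 3 (score 56, percentile 14.4). In the CD24high vehicle library it ran from 32798549 to 32799058 with score 248, percentile 96.3. This 510 bp peak was the widest at the 10 genes and ranked 480 of 12985. All 3 peaks shared 75 bases. Of all 4015 G9ai-only regions of CD24neg, 527 (13.1%) overlapped a vehicle-only region of CD24high, and these 2 were among them. The difference in direction between the populations was not tested, with 1 vehicle library on each side.

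CD24low cells listed Agr2 at another place, upstream of the gene and with G9ai. The peak lay at 35984819 to 35984971 in replicate 2 (score 80, percentile 38.5) and at 35984822 to 35985044 in replicate 3 (score 53, percentile 23), 7954 and 7881 bp upstream of the start site. Vehicle libraries of CD24low had no peak in the window. Their nearest peak ended 10946 bp and 10940 bp below the gene, just beyond the 10 kb limit and on the same upstream side.

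Bpifb1, on chromosome 2, was listed in both arms of CD24low, with all peaks inside the gene and none at the same position. G9ai replicate 2 had a peak at 154206962 to 154207181 (percentile 60.3) and replicate 3 at 154207053 to 154207178 (percentile 53.5), 16144 and 16235 bp downstream of the first RefSeq start site. The vehicle libraries listed 2 other positions, one on either side of it. The first lay at 154194250 to 154194328 in replicate 2 (score 55, percentile 27.2) and at 154194092 to 154194338 in replicate 3 (score 158, percentile 96.3). The same site was thus among the strongest peaks of one vehicle list and below the median of the other. The second vehicle site, at 154215341 to 154215469 in replicate 2 and 154215346 to 154215417 in replicate 3, ranked low in both (percentiles 8.7 and 14). The CD24high vehicle library listed a further weak peak 5158 bp upstream, at 154185590 to 154185660 (percentile 3.43). Neither of the 2 Bpifb1 promoter windows, at start sites 154190818 and 154200380, was covered.

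The gel-forming mucins Muc5ac and Muc5b lie side by side on chromosome 7, and their peaks fell between the 2 spans. With G9ai in CD24low, a wide peak lay just above the higher-coordinate end of Muc5ac. It spanned 141820964 to 141821397 in replicate 2 (score 111, percentile 66.8) and 141821138 to 141821397 in replicate 3 (score 51, percentile 18.9). Its distance to the Muc5ac span was 1737 and 1911 bp, and 17662 bp separated it from Muc5b in both libraries. Replicate 2 placed it above the median of its list and replicate 3 well below. Muc5b had 1 peak, at 141838841 to 141838988 in the CD24high vehicle library (score 109, percentile 56.2), ending 71 bp below its lower-coordinate end.

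Muc1, on chromosome 3, encodes the membrane mucin of the apical epithelial surface and had peaks with vehicle alone, just past its 3′ end. In CD24neg the peak lay at 89233609 to 89233811 (score 92, percentile 52.2), 228 bp beyond the gene. In CD24high it lay at 89233866 to 89234029 (score 102, percentile 51.6), 485 bp beyond. These peaks did not overlap, and the second was closer to the neighbouring gene Trim46 (140 bp) than to Muc1. G9ai peaks lay just outside the window, on the same side of Muc1. They were 11316 and 11365 bp away in CD24high and 11319 and 11374 bp away in CD24low. Vehicle peaks of CD24low lay on that side too, at 12904 and 12905 bp, and 1 of CD24neg at 17130 bp.

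Muc4, Muc16 and Bpifa1 had no listed peak in any of the 10 libraries. Among all protein-coding genes, 42.7% had none. Muc16, a very large membrane mucin, had the longest window of the 10, 199377 bp: of the 1142 genes with a window at least as long, 239 (20.9%) had no listed peak. Of genes with windows at least as long as that of Muc4 (66506 bp), 22.6% had none, and 34.2% for Bpifa1 (26338 bp). These classes take in much longer windows too, so they are not shares at matched length. The Bpifa1 window is shorter than the median of all genes, 37169 bp. Peak numbers show how many called peaks lay between the listed peaks on either side of Muc16. There were 5 to 60 of them, or 1.59 to 12.0 per Mb, against 27.6 to 45.5 per Mb along chromosome 9 in the same libraries. The stretches between these neighbours were 2200952 to 5018138 bp long, depending on the library. Called peaks were therefore sparse over them in both arms of all 3 populations. The numbers do not place calls at Muc16 itself. The listed peak nearest to Muc4 was the Muc20 site described above, 16158 bp beyond its end. Between the listed neighbours of Muc4, 81462 to 2321453 bp apart, called peaks were dense. There were 8 to 169 unlisted calls, or 55.5 to 128 per Mb, against 22.5 to 35.6 per Mb along chromosome 16. Between the listed neighbours of Bpifa1, 122470 to 1001048 bp apart, there were 3 to 69 unlisted calls. That is 8.91 to 89.8 per Mb, against 25.4 to 41.2 per Mb along chromosome 2. The peak closest to Muc16 lay 11175 bp above its higher-coordinate end, the side of its start site, in CD24low G9ai replicate 2, and 11220 bp in replicate 3.

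**Figure D2:**
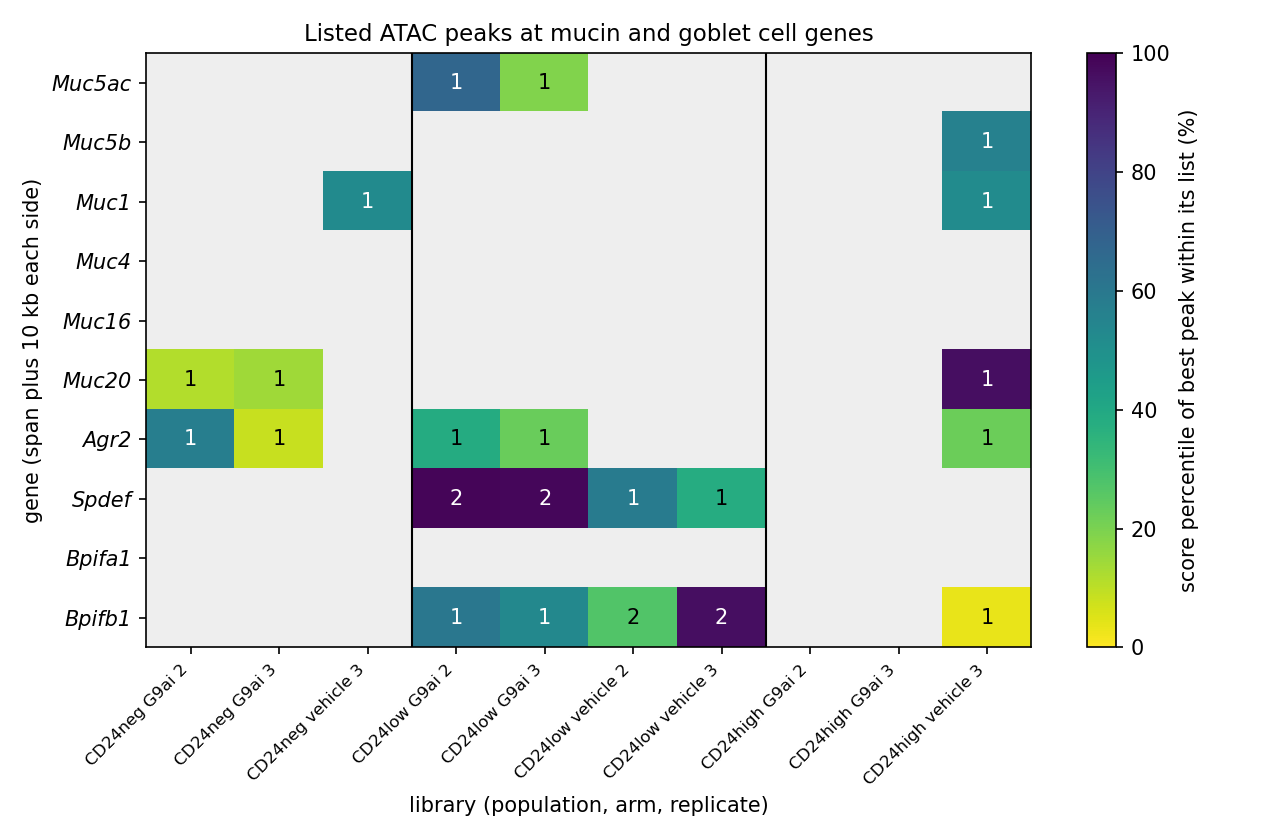
Listed peaks of each gene (rows) in each library (columns). Numbers count peaks in the gene span plus 10 kb on either side, colour gives the score percentile (%) of the best one within its list, and grey cells have none. Spdef reached percentiles 98.7 and 98.4 in the CD24low G9ai libraries, Muc20 96.3 in CD24high vehicle, and the CD24high G9ai libraries had no peak at any of the 10 genes.

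In CD24low, G9ai-only regions lay at 4 of the 10 genes (Muc5ac, Agr2, Spdef and Bpifb1) against 22.4% of all protein-coding genes, and vehicle-only regions at 2 (Spdef and Bpifb1) against 10.8%. In CD24neg, 2 genes had a G9ai-only region (Muc20 and Agr2; 14.9% of all genes) and 1 a vehicle-only region (Muc1; 26.8%). In CD24high, no gene had a G9ai-only region (11.3% of all genes), and 5 had a vehicle-only region (Muc1, Muc5b, Muc20, Agr2 and Bpifb1; 35.6%). With 10 genes, each gene moves such a share by 10 percentage points, so only the individual sites are described and no excess is read from the counts. The median window of the 10 genes was 44771 bp, against 37169 bp for all genes.

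**Figure D3:**
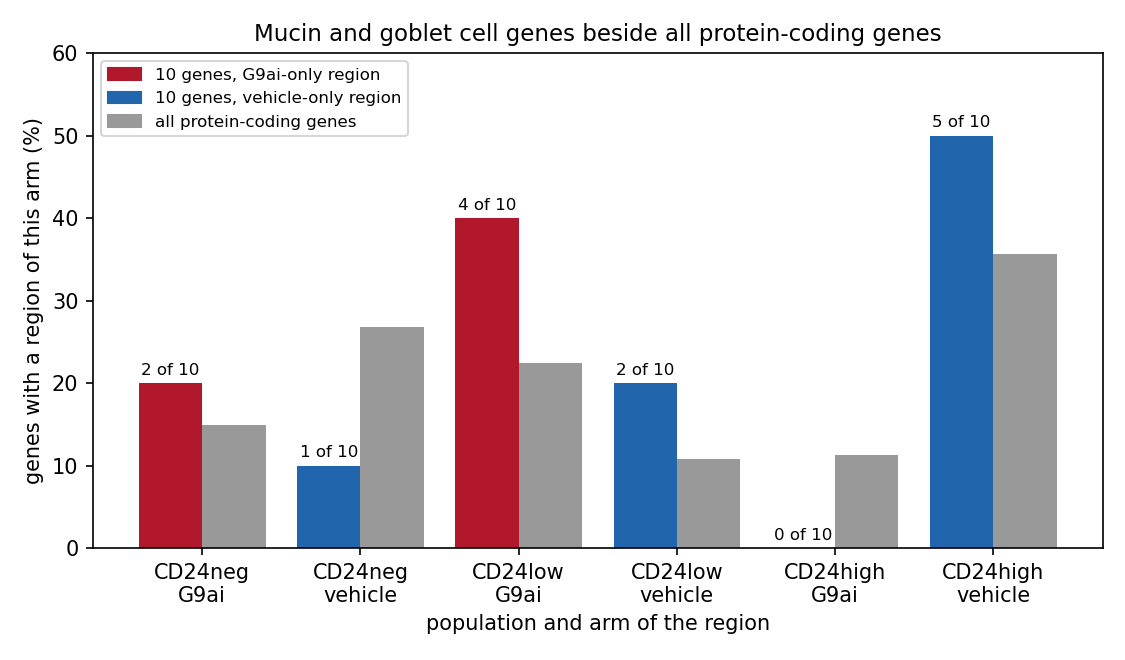
Share of genes (%, y axis) with a region listed in 1 arm only, by population and arm. Red and blue bars are the 10 mucin and goblet cell genes, and grey bars are all 21887 protein-coding genes. The counts run from 0 of 10 with G9ai in CD24high to 5 of 10 with vehicle in CD24high, where the grey bar is also the tallest (35.6%).

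Per library, the windows of the 10 genes held 5 and 5 peaks with G9ai and 3 and 3 with vehicle in CD24low. CD24neg had 2 and 2 with G9ai and 1 with vehicle. CD24high had 0 and 0 with G9ai and 5 with vehicle. The CD24high vehicle list was also the longest. Per 1000 listed peaks, the counts were highest in the CD24low vehicle libraries (1.17 and 1.18), where the lists were shortest. CD24low G9ai came next (0.678 and 0.679). The vehicle rates rest on 3 peaks at 2 genes, in lists whose replicates agree by construction, so no excess is read from them. Merged within each population, the peaks formed 16 regions, 7 G9ai-only and 9 vehicle-only. None was listed in both arms, and every G9ai or CD24low vehicle region was present in both libraries of its group. Of the 16, 8 touched a gene span.

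The promoter windows of the members were searched on both strands for short words tied to goblet cell control and for the general TATA box. The words were the forkhead word TGTTTAC, the ETS word CCGGAT of the SPDEF kind, the word TGGGAA bound by the Notch effector RBPJ, the TATA box TATAAA, and the STAT6 word TTCNNNNGAA. The table holds 9 windows for 8 of the genes. TGGGAA occurred in 3 of them (Spdef, Agr2 and Bpifa1), and in 24.5% of 21263 windows of all genes. In Spdef it lies at 27728968 to 27728973, within the capitals of the printed sequence, 22 bases before the start site. TATAAA occurred in Muc1, Muc4 and Bpifa1, each time 29 to 36 bases before the start site (12.6% of all windows). TGTTTAC occurred in Muc20 (3.01%). CCGGAT and TTCNNNNGAA were found in none of the 9 (7.24% and 6.35% of all windows). A match shows only that these letters are present.

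Other genes of mucus biology were taken from 6 lists, none sharing a name with the 10 genes. The list names are broad. The secreted product list also holds membrane protein genes such as Tspan8 and Pigr, and the regulator list holds the channel gene Ano1. In CD24low, G9ai-only regions lay at 11 of 25 other secreted products of goblet cells, at 11 of 23 enzymes of mucin glycosylation, at 8 of 20 genes of mucin granule packaging and release, and at 16 of 35 regulators, against the 22.4% of all genes given above. Vehicle-only regions lay at 1, 3, 1 and 10 of these genes, in the same order, or 4%, 13%, 5% and 28.6%, against 10.8% of all genes. The median windows of the lists were 24732, 46571, 53815 and 42113 bp, against 37169 bp for all genes. Among the 11 secreted products, Tff2 and Tff3 were both counted through 1 shared region. The list of other mucins had 3 of 13 with G9ai (Cd164, Mucl3 and Mcam) and 2 of 13 with vehicle (Muc13 and Mucl3). Mcam encodes an adhesion molecule rather than a mucin. Other BPI fold genes had 0 and 1 of 14. That 1 gene is Bpifb5, whose window takes in the second vehicle site of Bpifb1, so it adds no further site.

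In the secreted product list, the highest mean percentile with G9ai in CD24low was 97.9, with peaks inside the genes. It was reached by Tspan8, which encodes a membrane tetraspanin, and by the calcium-activated chloride channel regulator gene Clca4a. Scgb3a1, which encodes a secretoglobin of mucous and secretory cells, had a region 19 bp outside its span (percentile 75). Ltf, which encodes the iron-binding protein lactoferrin, had a region inside the gene (percentile 64.5). Lypd2 had regions of both arms on either side of the gene, with percentile 61.1 for G9ai and 31.2 for vehicle. In the granule list, Syt2, the calcium sensor of mucin release, had a mean percentile of 82.4. Unc13b and Unc13d, which encode priming factors of exocytosis, had 82.1 and 73.3, and the vesicle SNARE gene Vamp8 had 78.4. P2ry2, the receptor through which extracellular ATP triggers mucin secretion, was the 1 granule gene with a vehicle-only region (65.6).

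The glycosylation genes with G9ai-only regions in CD24low included St3gal1, which caps O-glycans with sialic acid (percentile 90.2), Galnt12 and Galnt3, which start O-glycans (60.4 and 49.2), and C1galt1c1, the chaperone of the core 1 enzyme (67.3). St3gal1, Galnt7 and Galnt2 also had vehicle-only regions there. Among the regulators, the highest percentile was 82.2 with G9ai (Gabrp) and 83 with vehicle (Ano1, which had 62.4 with G9ai). Jag1 and Tgfa followed with vehicle (75.5 and 75.3). Notch2, the receptor that holds airway secretory cells in their fate, had regions of both arms (79.1 with G9ai, 44.6 with vehicle). Xbp1, a factor of the unfolded protein response, had a G9ai-only region inside the gene (66.4) and a vehicle-only region 8018 bp outside it (24.1). Il4ra, the receptor chain shared by the cytokines of allergic airway disease, also had regions of both arms (44.5 with G9ai, 45.1 with vehicle). Stat6, the factor that acts below it, had a vehicle-only region alone (40.6).

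In CD24neg and CD24high the counts lay more often on the vehicle side, as they did for all genes. Vehicle-only regions fell at 11 of 20 granule genes in each of the 2 populations, where 26.8% and 35.6% of all genes had one. G9ai-only regions fell at 2 and 5 of those genes (14.9% and 11.3% of all genes). Secreted products had vehicle-only regions at 5 of 25 genes in CD24neg and 8 of 25 in CD24high, and G9ai-only regions at 3 and 0. Tff2 and Tff3 shared 1 region in the CD24neg G9ai count and 1 in the CD24high vehicle count. Glycosylation enzymes had vehicle-only regions at 9 of 23 in both populations, and regulators at 17 and 22 of 35. With G9ai the glycosylation counts were 1 and 6, and the regulator counts 11 and 7. The regulators included Creb3l1, an endoplasmic reticulum stress transducer (percentile 96.2 with vehicle in CD24neg), and Foxa3, a forkhead factor of goblet cells (78.8 in CD24neg and 88.6 in CD24high, both with vehicle). The highest regulator percentiles in CD24neg were 89.3 with G9ai (Ehf) and 96.2 with vehicle (Creb3l1). In CD24high they were 94.4 with G9ai (Elf3) and 99.5 with vehicle (Hes1). In CD24low, Foxa3 had a G9ai-only region 12 bp outside its span (50.9). In CD24high, Creb3l1 had weak regions of both arms (9.71 with G9ai, 2.73 with vehicle). The list of other mucins had vehicle-only regions at 3 of 13 genes in each population. They were Muc2 (73.2), Muc3 and Mcam in CD24neg, and Mcam, Muc3 and Cd164 in CD24high. G9ai-only counts for this list were 1 and 0.

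Sites listed in opposite arms of different populations were also found at these other genes. The Muc13 site on chromosome 16, at 33820890 to 33821011 961 bp outside the span, was G9ai-only in CD24neg and vehicle-only in CD24low. A site near Areg, an EGF receptor ligand gene, at 91139056 to 91139192 on chromosome 5, was G9ai-only in CD24neg and vehicle-only in CD24high, as at Agr2 and Muc20. The trefoil factor genes Tff2 and Tff3 shared a site at 31138497 to 31138626 on chromosome 17, and Cftr, the chloride channel gene, had one at 18248629 to 18248791 on chromosome 6. Both were G9ai-only in CD24low and vehicle-only in CD24high. Over the 6 lists, 20 overlapping pairs of regions lay in the same arm of 2 populations and 18 in opposite arms. Over all arm-only regions of the 3 populations, 2849 overlaps lay in the same arm and 2657 in opposite arms, a similar balance.

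**Figure D4:**
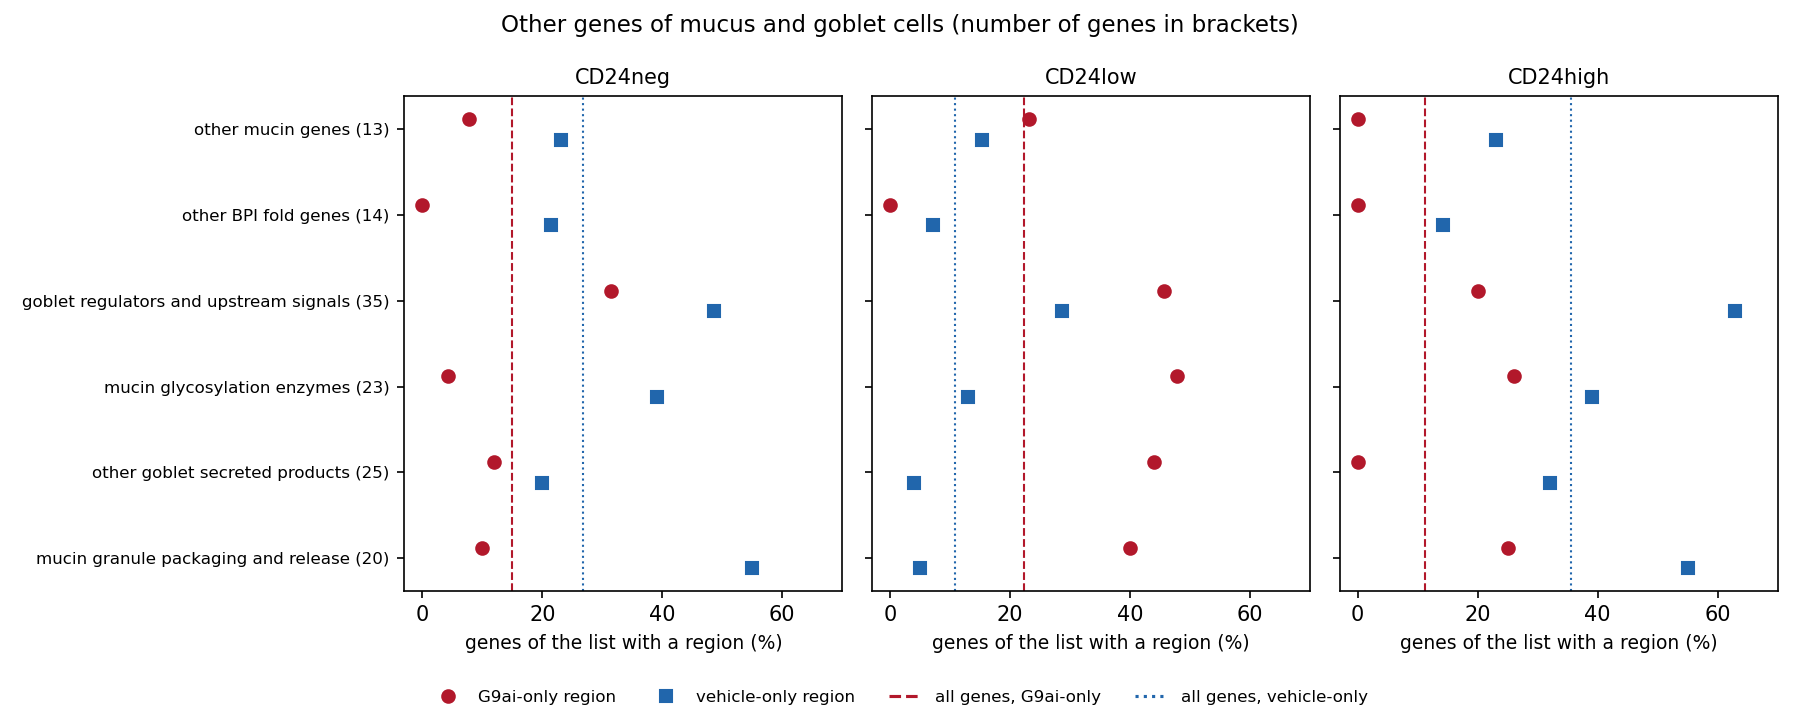
Share of the genes of 6 other lists (rows, number of genes in brackets) with a G9ai-only region (red circles) or a vehicle-only region (blue squares), in % on the x axis, by population. Lines give the shares of all protein-coding genes; in CD24low 44% of the secreted products had a G9ai-only region and 4% a vehicle-only region.

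Markers of other cell types were counted in the same way, although the gate had removed cells with surface CD31 (endothelial, encoded by Pecam1) or CD45 (leukocyte). All 3 club cell markers, among them Scgb1a1 and Cyp2f2, had a G9ai-only region in CD24low, and none a vehicle-only region there. In CD24high, Scgb1a1 and Cyp2f2 had vehicle-only regions that overlapped their G9ai-only regions of CD24low. They lay at 9087916 to 9088246 on chromosome 19 and at 27119847 to 27120004 on chromosome 7. Scgb1a1 and 1 other club marker are also counted among the 11 secreted products above. The shares of all genes given above, 22.4% with G9ai and 10.8% with vehicle in CD24low, 14.9% and 26.8% in CD24neg, and 11.3% and 35.6% in CD24high, stand beside all marker counts. Of 3 markers per type, G9ai-only regions in CD24low lay at 1 multiciliated, 1 alveolar type 2, 1 alveolar type 1, 0 basal, 2 endothelial (Pecam1 and Kdr) and 1 leukocyte marker (Spi1). Vehicle-only regions there lay at 1 alveolar type 2 and 1 alveolar type 1 marker. In CD24neg, vehicle-only regions lay at 2 of 3 markers each of multiciliated, alveolar type 2, basal, endothelial and leukocyte cells, and G9ai-only regions at 1 club, 1 alveolar type 2 and 1 basal marker. In CD24high, vehicle-only regions lay at 3 multiciliated, 1 leukocyte and 0 basal markers and at 2 of each other type, and G9ai-only regions at 1 multiciliated, 2 alveolar type 2 and 1 alveolar type 1 marker. The sort genes Epcam, Ly6a (Sca-1) and Cd24a had no listed region in CD24low, Ly6a had a vehicle-only region in both other populations, and Cd24a had one in CD24high (percentile 93.2). The part of these markers in the results at the 10 genes was not tested. The lists hold differences between arms, so they cannot place the sorted cells by type.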

How the data were processed

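ATAC-seq peak lists of 10 libraries were analysed. The submitters' processing notes name FastQC, Bowtie2, MACS2 and mm10. Versions, duplicate removal, transposase shift and thresholds: not given in the sources used here. Peaks were called per library, per the peak names in the files, which carry the letters NFR. The deposited score (column 5) is the authors' value on a scale that no source used here states, so it was ranked within a list by mid-rank percentile. No source used here says how the lists came to hold arm-specific peaks.

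Repeated lines (47 to 472 per list) were dropped and starts written 1-based. Peaks of a population were merged on an overlap of 1 bp or more. Gene spans and promoter windows came from RefSeq tables of GRCm38.p6; exons, introns and peak sequences were not used here. Of the names in 6 other lists, Muc17, Mucl1 and Zg16b matched no gene, and Tmem16a is a synonym of Ano1. The members and lists were chosen with earlier results of these data known, so no p-value is given. All 10 members were named. Genes of other lists were picked from those in the first 8 of their list in some population and arm, by mean percentile of the best peak. Not all of these were named, and some values given for a named gene rank lower in another population or arm. The window step was tested on simulated lists. Work was done in Python 3.11.15 with numpy 2.4.6 and matplotlib 3.10.9. Alternatives covered the window, overlap, merging, list length, repeated lines and each replicate left out.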

Additional observations from a re-analysis of the deposited data

Results flagged for a closer look

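At Agr2 and Muc20, both G9ai libraries and not the vehicle library listed a site in CD24neg, while the vehicle library and neither G9ai library listed it in CD24high. The peaks shared 77 bases at Agr2 and 75 at Muc20. This difference between populations was not tested, since each rests on 1 vehicle library per population and on lists already reduced to 1 arm. Of all G9ai-only regions of CD24neg, 13.1% overlapped a vehicle-only region of CD24high, whose list was the longest, and 3.69% a G9ai-only one. Over all arm-only regions, overlaps between populations in opposite arms (2657) were nearly as many as in the same arm (2849).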

How the results depend on the processing

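Counts of genes with a peak and of regions listed in 1 arm only changed with the window and the list length. They stayed within 1.5 times of the reported count when 50% of a peak had to lie in the window, when repeated lines were kept, when each G9ai or CD24low vehicle replicate was left out in turn, and, for regions, with merging up to 200 bp or any library of an arm. Counting a peak only for its nearest gene, chosen after seeing the data, also kept within that range and removed Muc1 from CD24high. Leaving out a replicate or accepting any library of an arm could not change the counts. Every region of the 10 genes was listed in all libraries of its arm and in none of the other. With the gene span alone, genes with a peak numbered 1 (CD24neg G9ai), 0 (CD24neg vehicle), 2 (CD24low G9ai) and 1 (CD24high vehicle), and regions 1, 0, 3 and 1. With 1 kb on either side, CD24neg G9ai had 1 gene and 1 region, CD24low G9ai 2 and 3, and CD24high vehicle 3 and 3. With 50 kb, CD24neg vehicle had 4 genes and 7 regions, CD24low G9ai 9 and 11, CD24low vehicle 6 and 7, CD24high G9ai 1 and 2, and CD24high vehicle 9 and 16. In the higher-scoring 50% of each list, CD24neg G9ai had 1 gene and 0 regions, CD24low G9ai 2 regions, CD24low vehicle 0 regions, and CD24high vehicle 3 genes and 3 regions. With every list cut to 2552 peaks, CD24neg G9ai had 1 gene and 0 regions, CD24neg vehicle 0 and 0, CD24low G9ai 2 and 1, and CD24high vehicle 1 and 1. These counts fall by construction, since fewer peaks or bases were searched. Ranked by width instead of score, 12 of 22 best-peak percentiles moved. The limit was 1 SD between replicates or, with 1 library, the 95% binomial interval of the percentile. Neither limit measures the uncertainty of a single peak's rank, so the count is a rough guide. The move was small for Bpifb1 in CD24high vehicle (3.43 to 2.69) and large for Muc5ac in CD24low G9ai replicate 3 (18.9 to 89.6). Agr2 in CD24neg G9ai replicate 2 went from 57.2 to 29.6 and was not counted as moved. No paired analysis was possible because no region of the 10 genes has a score in both arms of a population. Leaving out the vehicle library of CD24neg or CD24high was not run, since it leaves none. Depth is unknown, so an unlisted gene is not shown to be closed.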
